A study of Mus musculus with 8 samples.

Results

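The genes described here encode innate pattern and Fc receptors of myeloid cells: the toll-like receptors Tlr2 and Tlr4, their co-receptor Cd14 and adaptor Myd88, the IgG receptors Fcgr1, Fcgr2b and Fcgr3, and the C-type lectins Clec7a, Clec4d and Clec5a. They were taken by name, with every probe set whose only gene symbol was one of them. This gave 14 probe sets for 10 genes, out of 22626 probe sets and 12393 genes with a probe set of their own. Fcgr2b had 4 probe sets and Tlr4 had 2, and for these genes the probe set with the highest mean level stood for the gene.

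Expression was measured on 8 Affymetrix mouse arrays, from 4 hematopoietic cell lines that were each measured once with and once without PICALM. PICALM-rescued cells carried a human PICALM cDNA in the MSCVneo retrovirus, and Picalm-knockout cells carried empty MSCVneo. Both groups shared the rest of their history: the lines (6A, 6B, 6D and 84) came from fetal liver of embryonic day 14 fit1 Picalm fit1-5R embryos, whose Picalm gene codes for a non-functional protein, on the background strain B6(Cg)-TyrC-2J/J. They had been immortalized with retroviral MLL-ENL in the MSCV-IRES-eGFP vector, and were grown with 5 ng/ml interleukin-3 and 50 ng/ml stem cell factor. Rescue was driven by a retroviral vector and not by the gene's own promoter, so the rescued cells are a model of PICALM added back, not of an unaltered cell. The study cautions that PICALM in rescued cells may be above its physiological level, and that such an excess could act as a dominant negative. The comparison asked which genes differed once PICALM was added back.

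Toll-like receptors recognise conserved microbial molecules. TLR2 senses bacterial lipoproteins, TLR4 senses lipopolysaccharide handed over by CD14, and both pass the signal through MYD88 to NF-kB. Fc gamma receptors bind IgG on coated particles: FcgRI and FcgRIII are activating and signal through the common gamma chain encoded by Fcer1g, whereas FcgRIIb carries an inhibitory motif and dampens the others. Of the lectins, CLEC7A (dectin-1) binds fungal beta-glucan, CLEC4D pairs with CLEC4E (Mincle) to sense mycobacterial and fungal glycolipids, and CLEC5A signals through the adaptor DAP12, encoded by Tyrobp.

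The arrays were close in overall level, with medians between 7.32 and 7.35 on the log2 scale. All 12 myeloid progenitor markers were measured and none lay in the dimmest 40% of probe sets, whereas 5 of 7 B cell, 5 of 6 T and NK cell and 6 of 7 dendritic cell markers did. No probe set was assigned to Picalm alone or with other genes, so the group labels were not checked against its level. The array of knockout line 84 stood apart in interferon-stimulated genes, whose mean was 9.99 there and 6.14 to 6.24 in the other knockout arrays. In the rescued arrays this mean was 7.42 in line 84 and 6.13 to 6.35 in the other lines. For the receptor genes, and for other genes with values below whose difference line 84 moved by over 1.5 times, the difference without it is therefore also given.

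No receptor gene passed the test. A limma fit that blocked on cell line, with p-values adjusted by Benjamini-Hochberg across the whole table, called 0 of the 14 probe sets at the 12.3% false discovery rate of the methods, where 0.00442% of all probe sets were called higher and 0.0751% lower in rescued cells. SAM (significance analysis of microarrays), paired by line, also called 0 of the 14, against 0.539% of all probe sets called higher and 2.08% called lower. At an unadjusted p under 0.05, 6 of the 14 probe sets were higher and 2 were lower, where 6.17% and 6.32% of all probe sets were. The 6 probe sets stood for 3 genes only, because 4 of them measured Fcgr2b.

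The direction in the 4 lines divided the genes into 3 groups. Cd14, Myd88, Fcgr2b, Fcgr3 and Clec5a (8 probe sets) were higher in the rescued array of every line, which 12.0% of all probe sets were. Clec7a and Clec4d (2 probe sets) were lower in every line, which 11.8% of all probe sets were. Tlr2, Tlr4 and Fcgr1 were of mixed direction. Every rescued array lay above every knockout array for Fcgr2b and Fcgr3 (5 probe sets, against 1.88% of all), and 0 of the 14 had every rescued array below, against 1.57% of all. The median log2 difference was 0.29 over the 14 probe sets, 0.17 over the 10 genes and 0.003 over all probe sets. Without line 84 the median was 0.13 over the 14 probe sets and 0.08 over the 10 genes. The plot of differences by line shows how far line 84 lay from the others.

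**Figure D1:**
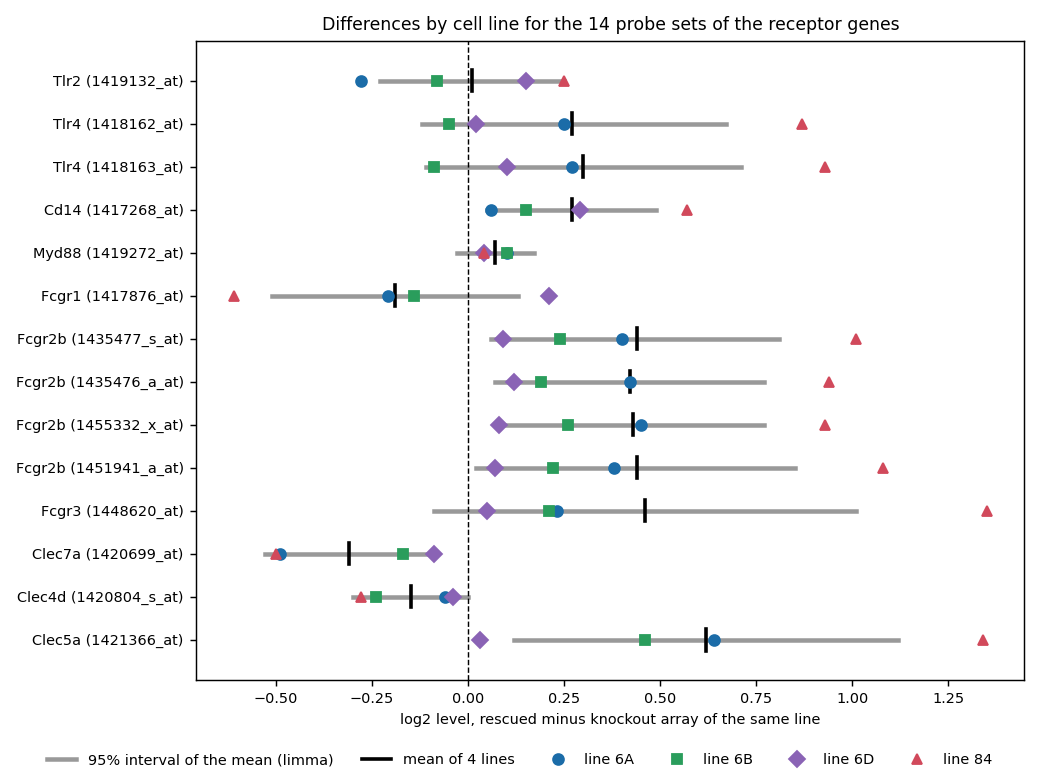
Log2 difference, rescued minus knockout array of the same line, for each of the 14 probe sets; colored points are the 4 lines, black ticks their mean and gray bars the 95% interval from limma. All 4 Fcgr2b probe sets lay to the right of 0 in every line, Clec7a and Clec4d to the left, and line 84 gave the farthest point for most genes.

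The IgG receptors held the only members whose groups did not overlap. Fcgr2b, the inhibitory receptor, had log2 levels of 12.02, 11.90, 11.82 and 12.29 in rescued lines 6A, 6B, 6D and 84, against 11.62, 11.66, 11.72 and 11.28 in the knockout arrays of the same lines. The lowest rescued array was 0.09 above the highest knockout array. The mean was 0.44 higher in rescued cells (SE 0.15, n = 4 lines, 95% interval 0.06 to 0.81, 1.35-fold), with a limma adjusted p of 0.359. Without line 84 the mean difference was 0.25. The other 3 Fcgr2b probe sets gave mean differences of 0.42, 0.43 and 0.44, with adjusted p between 0.350 and 0.387 in limma, so all 4 placed the gene alike. They are readings of one gene and not 4 separate results.

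Fcgr3, the activating receptor whose extracellular part closely resembles that of Fcgr2b, had levels of 12.41, 12.28, 12.23 and 12.22 in rescued lines 6A, 6B, 6D and 84, against 12.19, 12.07, 12.18 and 10.87 in the knockout arrays. Rescued arrays were tightly grouped, and the knockout array of line 84 was far below the rest. The lowest rescued array was only 0.04 above the highest knockout array. The mean was 0.46 higher in rescued cells (SE 0.22, 95% interval -0.09 to 1.01, 1.38-fold, limma adjusted p = 0.454), and 0.16 higher without line 84. Fcgr2b and Fcgr3 share sequence, and some Fcgr2b probe sets are of the types that may match related transcripts, so part of their signal may be held in common. Cells of a type that became more frequent and more RNA per cell cannot be told apart in these bulk samples.

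Fcgr1, the high-affinity activating receptor, was lower in 3 of the 4 lines. It had levels of 8.62, 8.47, 8.38 and 8.28 in rescued lines 6A, 6B, 6D and 84, against 8.83, 8.61, 8.16 and 8.90 in the knockout arrays. Only line 6D had the rescued array above its partner, and the groups overlapped. The mean difference was -0.19 (SE 0.13, 95% interval -0.51 to 0.13, limma adjusted p = 0.569), and -0.05 without line 84. Fcgr1 is known to be induced by interferon, and its widest gap, -0.61, was in line 84, where the mean of the interferon-stimulated genes differed by -2.57. Their part in the value was not tested.

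The 250 bases before the first listed start of Fcgr2b and Fcgr3 are shown because these genes had separate groups, and those of the 3 lectins because their directions opposed each other. They come from RefSeq promoter sequences on GRCm38.p6, matched here for 8 of the 10 genes (those of Tlr4 and Cd14 were not used), with matches to a PU.1 core (GAGGAAG, or CTTCCTC on the other strand) and a C/EBP motif (TTGCNNAA, or TTNNGCAA) in capitals.
Fcgr2b, chr1:170976072-170976321, minus strand: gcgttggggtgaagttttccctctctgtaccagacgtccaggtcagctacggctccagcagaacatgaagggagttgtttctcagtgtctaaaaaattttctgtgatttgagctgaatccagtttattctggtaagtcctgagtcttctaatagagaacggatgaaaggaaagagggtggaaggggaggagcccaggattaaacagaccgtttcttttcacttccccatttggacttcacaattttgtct
Fcgr3, chr1:171059404-171059653, minus strand: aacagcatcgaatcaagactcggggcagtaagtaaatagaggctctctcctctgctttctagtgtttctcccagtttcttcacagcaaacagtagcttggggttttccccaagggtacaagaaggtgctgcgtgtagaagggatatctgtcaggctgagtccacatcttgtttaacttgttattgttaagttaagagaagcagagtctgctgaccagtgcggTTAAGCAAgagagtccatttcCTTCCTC
Clec5a, chr6:40585806-40586055, minus strand: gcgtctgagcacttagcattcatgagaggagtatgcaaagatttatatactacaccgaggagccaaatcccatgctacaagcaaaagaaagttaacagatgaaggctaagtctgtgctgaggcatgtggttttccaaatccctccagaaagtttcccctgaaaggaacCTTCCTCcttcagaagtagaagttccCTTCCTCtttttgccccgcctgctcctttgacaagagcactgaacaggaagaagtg
Clec7a, chr6:129472780-129473029, minus strand: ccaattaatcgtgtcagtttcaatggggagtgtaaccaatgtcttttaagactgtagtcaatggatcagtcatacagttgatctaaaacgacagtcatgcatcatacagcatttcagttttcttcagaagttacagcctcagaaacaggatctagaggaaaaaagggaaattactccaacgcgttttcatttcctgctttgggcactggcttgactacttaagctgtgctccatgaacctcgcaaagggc
Clec4d, chr6:123261857-123262106, plus strand: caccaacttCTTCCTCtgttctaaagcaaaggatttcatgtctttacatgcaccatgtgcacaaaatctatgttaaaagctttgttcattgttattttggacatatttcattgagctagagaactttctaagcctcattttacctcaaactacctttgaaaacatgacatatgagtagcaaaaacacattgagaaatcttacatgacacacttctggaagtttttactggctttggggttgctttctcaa
PU.1 and the C/EBP factors are leading regulators of myeloid genes. Fcgr3 held 1 match to each motif, with the PU.1 letters ending at the base before the start. Clec5a held 2 PU.1 matches, Clec4d held 1 far from the start, and Fcgr2b and Clec7a held none. The PU.1 letters were in 4 of the 8 windows and in 10.4% of all 27025 promoter windows of this length, and the C/EBP letters were in 1 of 8 and in 9.55%. A match describes these letters and does not show a binding site.

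The lectins differed in opposite directions. Clec5a had levels of 10.93, 11.07, 10.70 and 10.61 in rescued lines 6A, 6B, 6D and 84, against 10.28, 10.60, 10.67 and 9.27 in the knockout arrays. Rescued cells were higher in each line, by 0.03 in line 6D and by 1.34 in line 84, and the groups overlapped, since rescued line 84 lay below knockout line 6D. Rescued cells averaged 0.62 more (SE 0.20, 95% interval 0.12 to 1.12, 1.54-fold, limma adjusted p = 0.352), and 0.38 without line 84.

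Clec7a had levels of 11.11, 11.01, 10.96 and 10.18 in rescued lines 6A, 6B, 6D and 84, against 11.60, 11.18, 11.05 and 10.69 in the knockout arrays. Rescued cells were lower in each line, and line 84 was the lowest of both groups. On average the difference was -0.31 (SE 0.09, 95% interval -0.53 to -0.09, limma adjusted p = 0.331), and -0.25 without line 84. Unlike Clec5a, the gap of Clec7a was as wide in line 6A (-0.49) as in line 84 (-0.50).

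Clec4d had levels of 9.77, 9.32, 9.19 and 9.63 in rescued lines 6A, 6B, 6D and 84, against 9.83, 9.56, 9.22 and 9.91 in the knockout arrays. The groups overlapped, and the lines differed more than the partners did. On average the difference was -0.15 (SE 0.06, limma adjusted p = 0.391), and -0.11 without line 84. Clec4e, its binding partner and its protein-coding neighbor on chromosome 6, was also lower in each line, with levels of 10.24, 9.56, 9.58 and 10.45 in rescued cells against 10.48, 9.93, 9.69 and 10.79 in knockout cells. Its mean difference was -0.27 (SE 0.06, limma adjusted p = 0.310), and SAM called it lower.

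**Figure D2:**
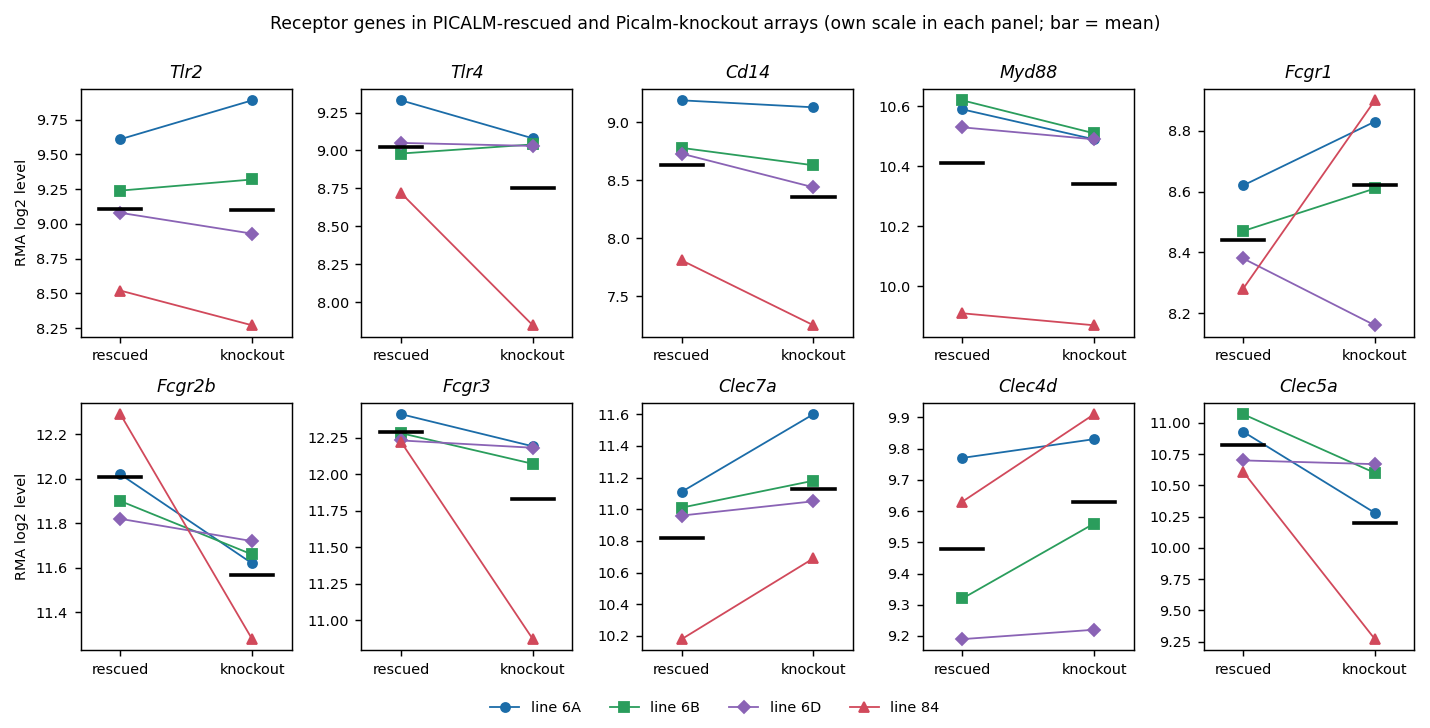
Log2 level of each receptor gene in the 8 arrays, rescued left and knockout right, with a line joining the arrays of each cell line. Partners of one line lay close together for Tlr2 and Myd88, and line 84 was the lowest knockout array by a wide margin for Tlr4, Fcgr3 and Clec5a.

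Of the toll-like receptor genes and their partners, Cd14, Tlr2 and Myd88 mostly followed the cell line. Cd14 had levels of 9.19, 8.78, 8.73 and 7.81 in rescued lines 6A, 6B, 6D and 84, against 9.13, 8.63, 8.44 and 7.25 in the knockout arrays. Rescued cells were higher in each line, but line 84 was low in both groups and the groups overlapped. The mean difference was 0.27 (SE 0.09, 95% interval 0.05 to 0.49, 1.20-fold, limma adjusted p = 0.353), and 0.17 without line 84.

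Tlr4 had levels of 9.33, 8.98, 9.05 and 8.72 in rescued lines 6A, 6B, 6D and 84, against 9.08, 9.04, 9.03 and 7.85 in the knockout arrays. The knockout array of line 84 alone stood below the others. The mean difference was 0.27 (SE 0.16, 95% interval -0.12 to 0.67, limma adjusted p = 0.514) and 0.07 without line 84. The second Tlr4 probe set gave 0.30, and 0.09 without that line.

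Tlr2 had levels of 9.61, 9.24, 9.08 and 8.52 in rescued lines 6A, 6B, 6D and 84, against 9.89, 9.32, 8.93 and 8.27 in the knockout arrays. The lines kept the same order in both groups, and the rescued array was lower in 6A and 6B and higher in 6D and 84. The mean difference was 0.01 (95% interval -0.23 to 0.25, limma adjusted p = 0.968), and -0.07 without line 84.

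Myd88 had levels of 10.59, 10.62, 10.53 and 9.91 in rescued lines 6A, 6B, 6D and 84, against 10.49, 10.51, 10.49 and 9.87 in the knockout arrays. Line 84 was low in both groups. Rescued cells averaged 0.07 more (SE 0.04, 95% interval -0.03 to 0.17, limma adjusted p = 0.517), and 0.08 more without line 84.

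The share of each gene's spread that lay between lines set these receptors apart from one another. Lines took up 98.1% of the sum of squares for Myd88, 95.7% for Tlr2 and 93.0% for Cd14. For Fcgr2b lines took up 0.464% and rescue 60.9%, and its other probe sets gave line shares of 1.66% to 9.90%. The remaining 38.7% for Fcgr2b reflects that its difference itself varied by line, from 0.09 in 6D to 1.01 in 84. Lines took up 47.3% for Fcgr1 and 42.5% for Fcgr3, and rescue 15.3% and 25.2%. The line share of Tlr4 was 70.8%, less than that of the lectins Clec4d (87.3%) and Clec7a (77.3%). Clec5a was intermediate, with 43.5% between lines and 35.7% for rescue. Over the 10 genes the medians were 74.1% for lines and 12.9% for rescue, against 59.8% and 8.11% over all probe sets.

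Line 84 carried the widest differences. It gave the largest absolute difference in 8 of the 10 genes, against 44.2% of all probe sets, and its knockout array was the lowest of all 8 arrays in 7 of the 10 genes, against 23.4% of all probe sets. The median absolute difference of the 10 genes was 0.24 in line 6A, 0.16 in 6B, 0.07 in 6D and 0.59 in 84, where all probe sets had 0.098, 0.086, 0.067 and 0.134 in the same lines. In line 6D the receptor genes thus differed by about as much as the median probe set.

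The genes whose levels over the 8 arrays ran most like the mean of the 10 receptor genes were Fpr2 (r = 0.990), Nek7 and Fermt3 (0.987 each), and Pttg1ip and Klhdc4 (0.985 each), out of 12383 genes searched. Fpr2 encodes a formyl peptide receptor of phagocytes. The arrays are pairs from 4 lines and line 84 is far from the others, so these values describe a ranking only.

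Related genes were grouped in 7 lists, and limma called 0 genes in each. Of their 108 measured genes, 13 were higher and 10 lower at an unadjusted p under 0.05, and SAM called 0 higher and 3 lower. Over all probe sets the shares were 6.17% higher and 6.32% lower at that p, and 0.539% and 2.08% by SAM. The counts of genes higher or lower in all 4 lines given below stand against 12.0% and 11.8% of all probe sets. Of the 108 genes, only Lbp, Clec4a2 and Itgam had every rescued array above every knockout array, and only Lat2 had every one below. Over all probe sets the shares were 1.88% above and 1.57% below, so these genes are examples and not a result about the lists. Among 13 measured toll-like receptors and partners, 2 were higher in all 4 lines (Tlr1 and Lbp) and 1 was lower (Cd180), with a median difference of 0.07. Lbp, the lipopolysaccharide-binding protein, had levels of 11.08, 10.90, 10.99 and 10.91 in rescued cells against 10.62, 10.57, 10.80 and 10.00 in knockout cells, with no overlap (difference 0.47, limma adjusted p = 0.318). Cd180, a TLR4-like receptor best known from B cells, differed by -0.36 (limma adjusted p = 0.257) and was called lower by SAM.

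Downstream of the receptors, 0 of 16 Myd88 and NF-kB signaling genes were higher in all lines and 4 were lower (Tab2, Ikbkg, Nfkb2 and Irf7), with a median of 0.01. Ikbkg and Nfkb2 differed by only -0.06 and -0.04. The Tab2 difference was -0.22, and -0.12 without line 84, and that of Irf7 was -0.71, and -0.13 without it. Of 16 NF-kB targets, 0 were higher and 3 were lower in all lines (Ccl3, Ccl4 and Ptgs2), with a median of -0.05. Of these 16 targets 9 lay in the dimmest 40%, Ptgs2 among them, and the Ccl4 difference was -0.51, and -0.16 without line 84. Ccl3, a macrophage chemokine, had levels of 9.34, 8.78, 8.68 and 9.42 in rescued lines against 9.88, 9.49, 9.31 and 10.65 in knockout lines. It was lower in each line, by 0.78 in the mean (limma adjusted p = 0.208), and SAM called it lower.

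The other Fc receptors and lectins were mixed. Of 10 other Fc receptors 1 was higher in all lines (Ms4a2) and 1 lower (Trim21), and 6 of the 10, Ms4a2 among them, lay in the dimmest 40% of probe sets. The Ms4a2 difference was 0.66, and 0.22 without line 84; that of Trim21 was -0.36, and -0.10 without it. Fcgr4, an activating receptor that lies between Fcgr2b and Fcgr3 among the protein-coding genes of chromosome 1, was higher in 3 of 4 lines (difference 0.30, limma adjusted p = 0.398), and Fcer1g, the shared signaling chain, differed by 0.10 (limma adjusted p = 0.454). Of 12 other lectins 4 were higher in all lines (Clec4a2, Mrc1, Mrc2 and Lgals3) and 1 was lower (Clec4e). Clec4a2, an inhibitory lectin, had levels of 10.37, 9.97, 9.85 and 10.07 in rescued cells against 9.26, 9.31, 9.52 and 7.71 in knockout cells, with no overlap (difference 1.12, 2.17-fold, limma adjusted p = 0.334). Without line 84 its difference was 0.70.

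Of 22 genes of ITAM and ITIM signaling, the activating and inhibitory motifs through which Fc receptors and lectins act, 6 were higher in all lines and 2 were lower, with a median of 0.05. Lat2, an adaptor of this pathway, had levels of 9.92, 9.92, 9.96 and 10.03 in rescued cells against 10.28, 10.25, 10.13 and 10.92 in knockout cells, with every rescued array lower (difference -0.44, limma adjusted p = 0.328). Without line 84 its difference was -0.29. Of 19 other pattern and phagocytic receptors 5 were higher and 1 was lower in all lines (Aim2, difference -0.16), with a median of -0.01. Itgam, the CD11b integrin chain, had levels of 10.30, 9.96, 9.73 and 10.10 in rescued cells against 9.48, 9.50, 9.51 and 8.71 in knockout cells, with no overlap (difference 0.72, limma adjusted p = 0.323).

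**Figure D3:**
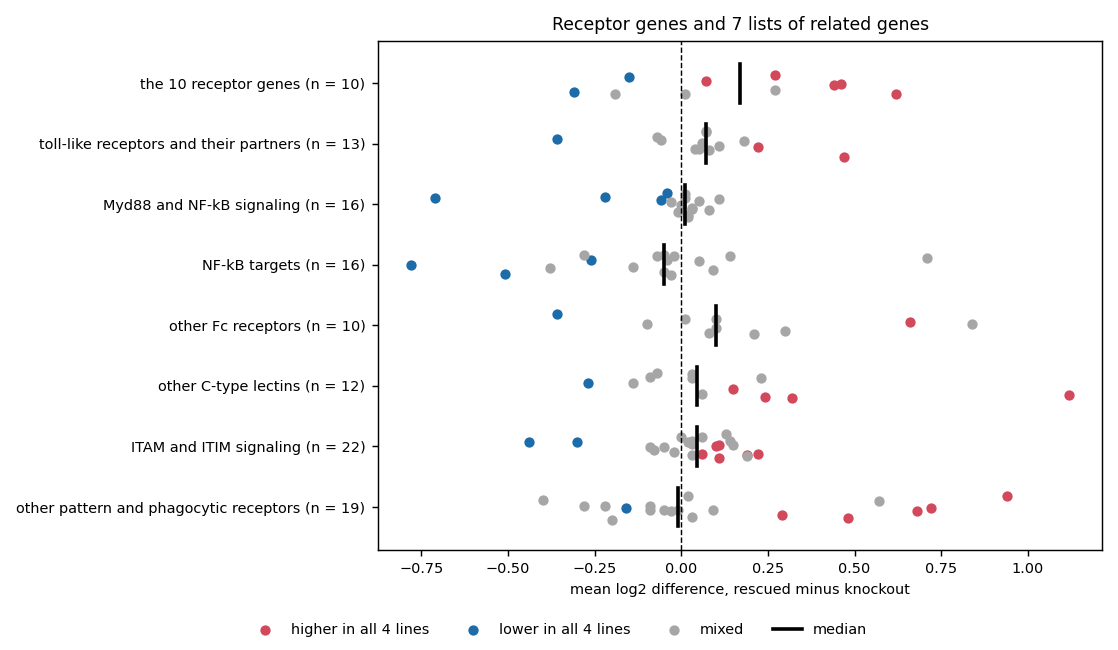
Mean log2 difference, rescued minus knockout, of each receptor gene and of each measured gene of the 7 related lists; red and blue points were higher or lower in all 4 lines, gray points were mixed and black ticks are medians. List medians lay between -0.05 and 0.10 and that of the receptor genes was 0.17, but without line 84 the lists spanned -0.08 to 0.12 and the receptor median, at 0.08, lay among them.

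Markers of other myeloid cells differed between the groups as well, although limma called 0 of them. SAM called the neutrophil granule genes Camp and Lcn2 and the mast cell protease gene Cpa3 higher. It called 1 myeloid progenitor marker lower, the surface antigen gene Cd34, with levels of 8.93, 9.38, 9.64 and 11.09 in rescued lines 6A, 6B, 6D and 84 against 10.85, 11.01, 10.16 and 12.03 in the knockout arrays (difference -1.25, limma adjusted p = 0.261). SAM also called lower Tfrc, listed as an erythroid marker (difference -0.23), and Afp, listed as a hepatocyte marker (-1.25). The lists of these 3 genes were not lower as a whole. Of 12 myeloid progenitor markers 3 were higher and 1 was lower in all lines, with a median of 0.05. Of 6 measured erythroid markers 0 were higher and 1 was lower (median 0.05), and of 7 hepatocyte markers 1 was higher and 1 was lower (median 0.07). The erythroid Alas2, Ermap and Hba-a1 and the hepatocyte Ahsg, Alb, Apoa2 and Fgb were in the dimmest 40%. Tfrc and Afp are therefore not read here as signs of erythroid cells or hepatocytes. Of 10 measured neutrophil markers 7 were higher in all 4 lines and 0 were lower, with a median difference of 1.53. Their mean level ranged from 9.52 to 10.85 in rescued arrays, against 7.86 to 9.07 in knockout arrays, and Cxcr2 and Mmp9 were in the dimmest 40%. Of 10 measured mast cell and basophil markers 6 were higher and 1 was lower, with a mean level of 7.90 to 9.94 in rescued arrays against 7.73 to 9.02 in knockout arrays, and Cma1, Mcpt4, Tpsab1 and Tpsb2 were dim. The 6 were Cpa3, Mcpt8, Ms4a3, Srgn and the dim Cma1 and Tpsb2. Ms4a3 (12.30 to 13.49) and Srgn (13.89 to 14.27) were high in every array of both groups.

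Monocyte and macrophage markers did not share that direction: of 10 measured, 1 was higher and 3 were lower in all lines, with a mean level of at most 9.37 in rescued arrays against at most 9.47 in knockout arrays, and C1qa and C1qb were dim. The mean of this list differed by -0.10 in line 6A, -0.07 in 6B, 0.10 in 6D and -0.09 in 84. By line, the mean neutrophil difference was 2.01 in 6A, 0.92 in 6B, 0.47 in 6D and 1.65 in 84, and that of the 10 receptor genes was 0.06, 0.05, 0.08 and 0.40 in the same lines. The part of any of these cell types in the receptor values was not tested.

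**Figure D4:**
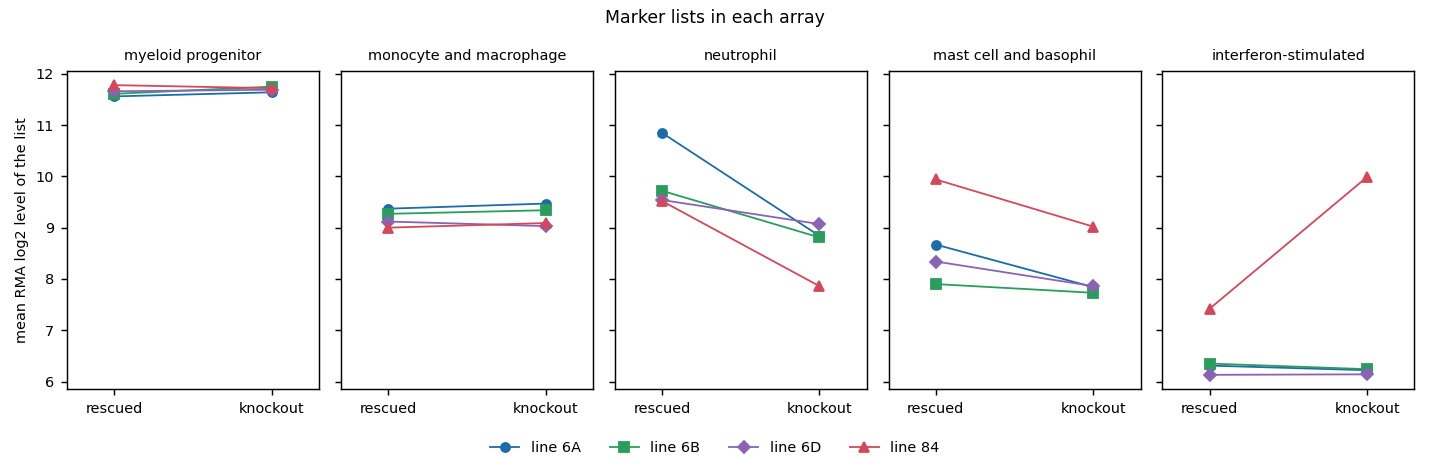
Mean log2 level of marker lists in the 8 arrays, rescued left and knockout right, joined by cell line. Neutrophil markers were higher after rescue in all 4 lines, and interferon-stimulated genes reached 9.99 in the knockout array of line 84.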

How the data were processed

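The values used were the log2 expression values deposited by the authors, made from 8 arrays by robust multi-array averaging; the software was not given in the sources used here. The methods and the labels name different versions of the mouse array, and probe sets are those of the deposited table. Of 22690 probe sets, 64 controls were left out and 22626 were tested with no filter on level. GEO's platform annotation gave 20380 of them 1 gene symbol, 691 several and 1555 none.

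Rescued and knockout arrays were compared with limma 3.58.1 (R 4.3.3), with the cell line as a block, two-sided tests and Benjamini-Hochberg adjustment, at the 12.3% false discovery rate of the methods. The block rests on partner arrays being of the same line; their deviations from the group means correlated by 0.623 to 0.811, and all 8 arrays correlated best with their own line. SAM was run over all 16 sign changes of the 4 paired differences. The lines are described as biological replicates, without saying whether each came from its own embryo. With the block, limma p-values, SEs and intervals rest on how the rescued minus knockout difference varied across these 4 lines, not on the spread between lines. They do not rest on that alone, since limma draws each probe set's variance toward that of all probe sets. An SE can therefore be smaller than the 4 differences alone would give. For Fcgr2b the SD of the 4 differences was 0.40 and the limma SE was 0.15. For Clec5a these were 0.55 and 0.20, and for Fcgr3 0.60 and 0.22. So few arrays limit the precision.

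The receptor genes, the related lists and the marker lists were chosen with earlier results of these data known. Besides the receptor genes, the 4 genes of each related list with the smallest p and the 5 genes most like the receptor mean were open to naming; genes in counts of 6 or fewer, and marker genes, were named after their values were seen. Alternatives were no block, the methods' t-test, SAM, other scalings, a variance trend, a filter on dim probe sets, a stricter threshold and leaving out each line. Medians of the 10 genes and of the lists without line 84 were added after seeing the data. The scripts were tested on simulated data. Picalm was not analysed here.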

Additional observations from a re-analysis of the deposited data

Results flagged for a closer look

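In 6 of 28 groups of 4 arrays, formed by the 14 probe sets and both conditions, 1 array lay far from the other 3, and all 6 were arrays of line 84. The measure is the gap to the nearest array divided by the range of the group, read at a 95% critical value, so chance alone marks some groups, and probe sets of one gene are not separate cases. The knockout array of line 84 was low for Tlr4, with a ratio of 0.959 (level 7.85, others 9.03 to 9.08) and, in the second Tlr4 probe set, 0.868 (7.14, others 8.21 to 8.37). It was low for Fcgr3 with a ratio of 0.911 (10.87, others 12.07 to 12.19). Myd88 was low in line 84 in both groups, with a ratio of 0.875 in rescued cells (9.91, others 10.53 to 10.62) and 0.954 in knockout cells (9.87, others 10.49 to 10.51). Clec7a was low in the rescued array of line 84, with a ratio of 0.843 (10.18, others 10.96 to 11.11).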

How the results depend on the processing

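No alternative brought a receptor gene past the threshold: of 110 values of the 10 genes under the alternatives, 108 kept their direction and 2 reversed, and the lowest adjusted p was 0.227 (limma). The reversed values were those of Tlr2, at -0.04 without line 6D and -0.07 without line 84 (range -0.07 to 0.11 when any 1 line was left out). The number of probe sets called among all 22626 depended far more on the setting. It was 18 with the lines paired and 0 without the replicate block, 0 with the methods' t-test after adjustment, 100 with a robust variance trend, 4 at an adjusted p under 0.05 and 592 by SAM. Leaving out 1 line gave 0 to 50, the highest without line 84. At an unadjusted p under 0.05, 2825 probe sets passed with the block, 1074 without it (4 of the 14 receptor probe sets) and 1179 in the methods' t-test (4 of 14). The median over the 14 receptor probe sets was 0.13 without line 84 and 0.41 without line 6B. The cause of these shifts was not tested. With 4 lines, a missed threshold does not show that levels were alike.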
